A study of Mus musculus with 10 samples.

Results

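Neurotrophin signalling in the mouse medial prefrontal cortex was followed through 7 genes: the ligands Bdnf and Ntf3, the receptors Ntrk2, Ntrk3, Ngfr and Sort1, and Gm47423, a noncoding gene that lies antisense inside Ntrk2. They were chosen by symbol, with their counts over cell types in these libraries already known, and are 7 of the 30406 genes that every library lists. Levels over cell types, which the choice used, are therefore given as a description with no test. The study took tissue punches of this region from socially dominant (rank 1) and subordinate (rank 4) mice, ranked by the tube test, in which animals push each other out of a narrow tube. All animals were male C57BL/6N mice over 2 months old with no listed genetic change, and tissue was taken 1 day after the last tube test. Each rank has 5 10x Genomics single-cell libraries, and each library pools cells of 2 or 3 mice digested with papain at 37 °C in the presence of an NMDA receptor blocker, so no value belongs to a single animal. The labels describe the libraries as independent pooled replicates.

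The 10 libraries held 4442750 to 29278466 transcript counts (unique molecular identifiers, UMIs) over 64937 cell barcodes, of which 46474 were kept as cells, 1448 to 12713 per library. Median depth was 1332 to 2668 UMIs per kept cell. Clustering without the 7 genes gave 26 clusters, of which 22 were named as 12 cell classes from marker genes, and 10946 of 16791 excitatory neurons fell into 5 named subclasses: intratelencephalic neurons of layer 2/3 and layer 5 (L2/3 IT, L5 IT), pyramidal tract neurons of layer 5 (L5 PT), near-projecting neurons (L5/6 NP) and corticothalamic neurons of layer 6 (L6 CT). The 4 libraries of replicates 2 and 3, in both ranks, stood apart: they held 3977600 to 7369565 UMIs in kept cells against 9319167 to 21857262 in the other 6, and almost no Gm47423. Any 2 libraries shared at most 104 barcodes, 1.70% of the smaller library, and no shared barcode had identical counts.

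Neurotrophins are secreted growth factors made as precursors and cut to mature proteins. Brain-derived neurotrophic factor (Bdnf) binds the receptor tyrosine kinase TrkB, the product of Ntrk2, and neurotrophin 3 (Ntf3) binds mainly TrkC, the product of Ntrk3. The p75 receptor (Ngfr) binds all neurotrophins, and their uncut precursors bind p75 together with sortilin, the product of Sort1, which also sorts Bdnf into secretory vesicles. In cortex, Bdnf transcription is driven by neuronal activity, TrkB signalling strengthens excitatory synapses, and astrocytes are known for a truncated TrkB without a kinase domain.

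Gm47423 (ENSMUSG00000114218) lies on the minus strand at chr13:58824218-58826994 of GRCm38 (GENCODE M21), annotated as an antisense gene. Ntrk2 (ENSMUSG00000055254) covers chr13:58806569-59133970 on the plus strand. The only annotated Gm47423 transcript has 3 exons with 2086 bases in all, at 58824218 to 58826010, 58826142 to 58826251 and 58826812 to 58826994. All 3 lie within the Ntrk2 intron from 58808941 to 58835814, and no exon base is shared with an Ntrk2 exon. The nearer end of Gm47423 is 17649 bases from the Ntrk2 start. Its last 120 bases, chr13:58824218-58824337 on the minus strand, are shown because they are the transcript's 3′ end and hold a polyadenylation hexamer, AATAAA, in capitals, which starts 14 bases before the transcript's end.
Gm47423 3′ end: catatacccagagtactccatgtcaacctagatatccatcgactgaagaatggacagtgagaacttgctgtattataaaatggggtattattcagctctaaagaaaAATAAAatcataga
Of 2056 31-base words in the Gm47423 transcript, 6 also occur in transcripts of 23 other genes, none of them Ntrk2, and none of the words in the last 300 bases is shared. A run of 16 adenines starts at base 1774 of the transcript. Whether the reads were counted by strand is not given in the sources used here, so counts given to Gm47423 and reads from the Ntrk2 precursor RNA cannot be told apart. Likewise, the 10 annotated Ntrk2 transcripts, 7 of them protein-coding, are counted as 1 gene, so full-length and truncated TrkB are not separated. Bdnf, Ntrk3 and Sort1 also overlap small antisense or unclassified gene models, while Ntf3 and Ngfr overlap none.

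Bdnf was the ligand with the clearest cell type. Excitatory neurons held 84.0% of its 5677 UMIs in kept cells, at 77.0 ± 19.9 CPM (counts of the gene per 1000000 UMIs of that class, SD, n = 10 libraries) with a lowest library of 49.0 and a highest of 107. The next class with more than 1 library, smooth muscle, had 20.7 ± 17.5 CPM (n = 8), and excitatory neurons were higher in 8 of 8 libraries that held both. The classes after excitatory neurons did not differ from their neighbours in the order beyond the spread between libraries: pericytes had 18.2 ± 18.3, endothelial cells 13.6 ± 10.99, microglia 12.7 ± 12.8, astrocytes 12.1 ± 9.05 and oligodendrocytes 9.93 ± 9.52 CPM. Oligodendrocyte precursors (OPCs) had 9.91 ± 8.87, committed OPCs 7.14 ± 7.43 (n = 7) and inhibitory neurons 6.16 ± 5.63 CPM. Fibroblasts and perivascular macrophages, with at least 20 cells in only 1 and 2 libraries, had 28.7 and 0 CPM. Whether free RNA in the droplets had a part in these low counts was not tested. A Bdnf UMI was found in 16.0% ± 3.79 of excitatory neurons against 2.04% of inhibitory neurons, whose median depths were 2419 and 2769 UMIs. With each cell thinned to 1500 UMIs, which left out 4761 excitatory neurons below that depth, the shares were 8.13% and 1.05%.

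Within excitatory neurons, Bdnf was lowest in L6 CT and L5/6 NP neurons. L5 IT neurons had 91.1 ± 37.2, L5 PT neurons 75.9 ± 24.6 and L2/3 IT neurons 70.7 ± 33.7 CPM (n = 10 each), levels that did not differ beyond their spread. L6 CT neurons had 24.8 ± 5.61 CPM (n = 8), below L2/3 IT neurons in 7 of 8 libraries, and L5/6 NP neurons had 8.997 ± 8.83 CPM (n = 7), below L6 CT neurons in 6 of 6.

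Bdnf (chr2:109674700-109727007, plus strand) is read from several alternative promoters, and RefSeq (GRCm38.p6) lists 7 start windows for it. A script searched each window of 250 bases before to 50 bases after a start for the cAMP response element half-site TGACG, or CGTCA on the other strand, the core of the site bound by the activity-regulated factor Creb1. It occurred in 1 of the 7 windows, in 0 of 2 for Ntf3, 0 of 1 for Ntrk2 and 0 of 1 for Ngfr. Over all 32851 windows it occurred in 20.81%, and the full element TGACGTCA in 1.79%. The 250 bases before the start of the matching window, chr2:109692186-109692435 on the plus strand, are shown with the half-site in capitals, since Bdnf counts below are set beside activity genes. Counts per gene do not say which promoter was used.
Bdnf promoter: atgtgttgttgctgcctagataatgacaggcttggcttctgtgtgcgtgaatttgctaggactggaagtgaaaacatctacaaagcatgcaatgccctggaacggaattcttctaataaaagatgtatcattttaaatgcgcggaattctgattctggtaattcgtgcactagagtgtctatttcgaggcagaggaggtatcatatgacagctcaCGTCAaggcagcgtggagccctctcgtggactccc

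Ntf3 (chr6:126101412-126166910, minus strand) was rare, with 315 UMIs in kept cells, and concentrated in upper-layer neurons. Excitatory neurons had 6.32 ± 4.18 CPM from 240 UMIs, and 142 of those UMIs came from L2/3 IT neurons at 29.0 ± 15.3 CPM (n = 10). L6 CT neurons followed at 2.37 CPM and were lower in 8 of 8 libraries, with a mean difference of 22.7 ± 14.1 CPM. L5 IT neurons had 1.07 and L5/6 NP neurons 1.01 CPM, and no Ntf3 UMI was found in 1094 L5 PT cells. Smooth muscle had the highest class mean, 14.8 ± 20.2 CPM (n = 8), but 4 of its 8 libraries had no Ntf3 UMI, and it did not differ from excitatory neurons beyond its spread. The remaining classes had at most 2.09 CPM, from 9 UMIs or fewer each.

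Ntrk2, the TrkB gene, was highest in astrocytes. They had 1047 ± 196 CPM (785 to 1326, n = 10), above inhibitory neurons at 548 ± 155 in 10 of 10 libraries by 500 ± 153 CPM, and a Ntrk2 UMI was found in 78.3% ± 5.99 of astrocytes. Inhibitory neurons, OPCs at 501 ± 41.0 and excitatory neurons at 420 ± 151 CPM did not differ beyond their spread. A step followed to committed OPCs at 174 ± 78.2 CPM (n = 7), below excitatory neurons in 7 of 7 libraries, and then microglia, pericytes, oligodendrocytes, smooth muscle and endothelial cells ran from 103 down to 69.5 CPM. Fibroblasts had 230 CPM in 1 library and perivascular macrophages 12.1 in 2. Excitatory neurons, which held more UMIs in all, had 50.8% of the 55585 Ntrk2 UMIs and astrocytes 29.9%. Among excitatory subclasses L5 PT neurons had 530 ± 152, L5 IT neurons 494 ± 159 and L6 CT neurons 482 ± 135 CPM, with no difference beyond spread. L5/6 NP neurons had 360 ± 82.2 CPM, below L6 CT neurons in 6 of 6 libraries, and L2/3 IT neurons 317 ± 109. Among inhibitory subclasses named by their marker genes, Lamp5 neurons had 865 ± 70.1 (n = 5) and Pvalb neurons 655 ± 78.8 CPM (n = 5). Sst neurons had 564 ± 150 (n = 8) and Vip neurons 491 ± 189 CPM (n = 8). Lamp5 neurons were above Pvalb neurons in 4 of 4 libraries. The Lamp5 and Pvalb means hold replicates 1, 4 and 5 alone, while the Sst and Vip means also hold libraries of replicates 2 and 3. The means of all 4 thus do not rest on the same libraries.

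Ntrk3 (chr7:78175959-78738012, minus strand), the TrkC gene, was a neuronal and OPC transcript. Excitatory neurons had 215 ± 36.0 CPM (168 to 275) and inhibitory neurons 204 ± 65.8, which did not differ beyond their spread. OPCs had 138 ± 33.5 CPM, below inhibitory neurons in 10 of 10 libraries, and smooth muscle had 80.3 ± 31.4 CPM (n = 8), below OPCs in 8 of 8. Astrocytes, in which Ntrk2 was highest, had 44.0 ± 22.7 CPM of Ntrk3, and committed OPCs 61.2 ± 67.5 (n = 7). Microglia, pericytes, endothelial cells and oligodendrocytes had 38.3, 33.0, 27.9 and 27.2 CPM, fibroblasts 57.5 in 1 library and perivascular macrophages 0 in 2. Its level differed between neuron subclasses: L5 PT neurons had 344 ± 44.7 and L2/3 IT neurons 302 ± 43.8 CPM, L6 CT neurons 203 ± 37.8 and L5 IT neurons 196 ± 40.2, and L5/6 NP neurons 30.1 ± 15.2. L2/3 IT neurons were above L6 CT neurons in 8 of 8 libraries and L5 IT neurons above L5/6 NP neurons in 7 of 7. Pvalb interneurons had 556 ± 103 CPM (n = 5), 334 ± 90.3 above Vip interneurons (190 ± 54.4) in 5 of 5 libraries. Sst neurons had 131 ± 43.6 and Lamp5 neurons 103 ± 47.2. As for Ntrk2, the means of these subclasses do not rest on the same libraries.

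Sort1 (chr3:108284082-108361511, plus strand) was spread over many classes. Oligodendrocytes had 162 ± 105 CPM (45.0 to 302) and excitatory neurons 156 ± 59.0 (93.7 to 243), with no difference beyond spread. Pericytes followed at 104 ± 41.6 CPM, below excitatory neurons in 10 of 10 libraries, and OPCs had 28.7 ± 23.2. Smooth muscle, microglia, inhibitory neurons and astrocytes lay between 92.7 and 73.1 CPM, endothelial cells at 48.5 and committed OPCs at 43.8. Fibroblasts had 172 CPM in 1 library and perivascular macrophages 13.9 in 2. The spread in excitatory neurons followed the software version of the files: replicates 1 to 3 had 93.7 to 133 CPM and replicates 4 and 5, whose matrices carry a newer software version, 209 to 243, in both ranks. The subclasses L2/3 IT, L5 IT, L5 PT and L5/6 NP lay between 182 and 195 CPM, and L6 CT neurons had 109 ± 46.5.

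Ngfr (chr11:95568818-95587735, minus strand), the p75 gene, was close to the limit of detection. It had 41 UMIs in all kept cells, 14 of them in astrocytes (0.944 ± 1.09 CPM), 7 in oligodendrocytes (1.12 ± 1.47 CPM) and 9 in excitatory neurons. No UMI was found in committed OPCs, microglia, pericytes, fibroblasts or perivascular macrophages. No order among classes can be read from such counts, and Ngfr passed the count filter in no class.

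**Figure D1:**
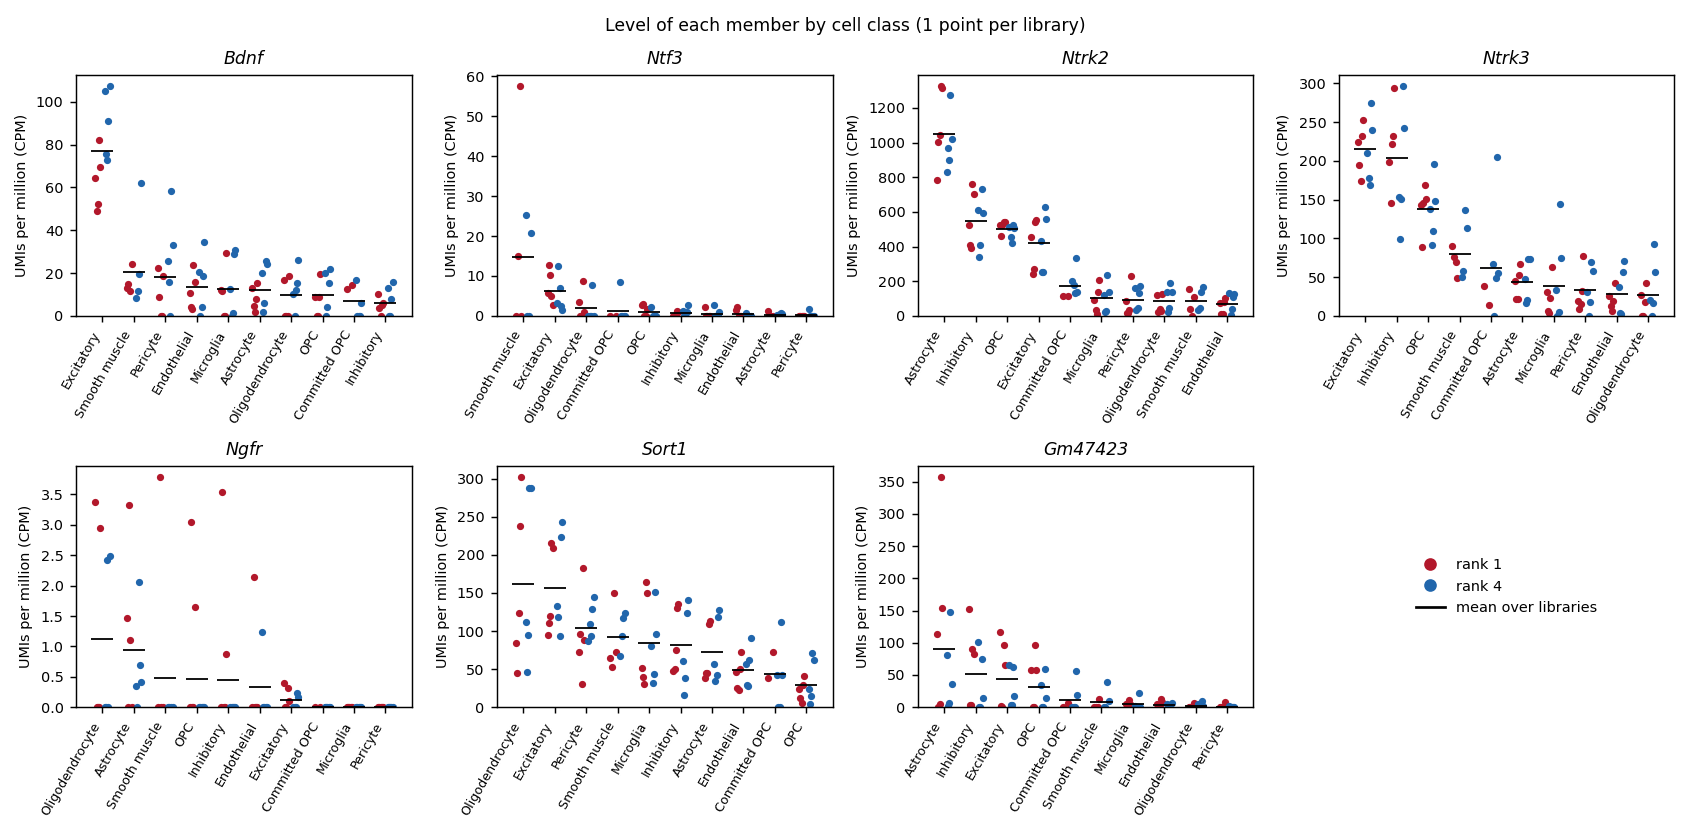
Level of each of the 7 genes (vertical axis, CPM of UMIs summed per library and class, separate scales) in the 10 cell classes with at least 20 cells in 7 or more libraries. Each point is 1 library, red for rank 1 and blue for rank 4, and bars are means over libraries; Bdnf stands out in excitatory neurons (77.0 CPM) and Ntrk2 in astrocytes (1047 CPM), while Gm47423 runs from 0 to 357 CPM within astrocytes.

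Gm47423 was found in the classes that hold Ntrk2, but at levels that differed between libraries far more than those of Ntrk2. Its class means followed the order astrocytes (90.1 ± 112 CPM, 0 to 357), inhibitory neurons (52.2 ± 54.6), excitatory neurons (43.1 ± 43.3) and OPCs (31.9 ± 34.3), and no neighbours in that order differed beyond their spread. Committed OPCs had 11.6 CPM and smooth muscle 7.67, and microglia, endothelial cells, oligodendrocytes and pericytes had 4.53, 3.89, 2.25 and 0.909 CPM. Fibroblasts had 28.7 CPM in 1 library, from 1 UMI, and perivascular macrophages 0 in 2. Among inhibitory subclasses Lamp5 neurons had 125 ± 69.3 and Pvalb neurons 57.1 ± 39.8 CPM (n = 5 each, in replicates 1, 4 and 5 alone). Vip neurons had 93.4 ± 78.1 and Sst neurons 37.9 ± 30.6 CPM (n = 8 each, 2 of them of replicates 2 and 3), so the order over all 4 depends on which libraries entered. Over all kept cells the rank 1 libraries, replicates 1 to 5, had 78.9, 1.24, 1.49, 112 and 67.2 CPM. The rank 4 libraries had 44.9, 2.01, 2.58, 66.0 and 16.2 CPM. Replicates 2 and 3 were thus below every other library in both ranks, at 1.24 to 2.58 against 16.2 to 112 CPM. Ntrk2 was lower in the same 4 libraries, but by far less: 314 to 372 CPM against 418 to 645 CPM. These 4 libraries also held the fewest UMIs in kept cells, and the part of depth in their low Gm47423 count was not tested.

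Set against Ntrk2 in the same cells, as Gm47423 UMIs per 100 Ntrk2 UMIs, libraries differed widely within every class with many Ntrk2 counts. The ratio is of counts, not corrected for length, and was computed where a library held at least 50 Ntrk2 UMIs in a class. In excitatory neurons it was 25.6, 0.868, 0.345, 17.7 and 11.8 in rank 1 replicates 1 to 5, and 15.1, 1.27, 1.21, 9.95 and 2.97 in rank 4. In astrocytes it was 14.4, 0, 0.478, 26.9 and 11.7 in rank 1, and 9.73, 0.171, 0.690, 11.6 and 3.56 in rank 4. In OPCs it was 11.03, 0, 0, 17.7 and 10.6 in rank 1, and 6.74, 0, 0, 11.2 and 2.82 in rank 4. The same libraries were high and the same libraries near 0 in neurons and glia alike. Over replicates 2 and 3 of both ranks together, astrocytes held 16 Gm47423 UMIs beside 3584 of Ntrk2, excitatory neurons 21 beside 2284, inhibitory neurons 2 beside 381, and OPCs 0 beside 588. Ntrk2 itself was thus well counted in these libraries.

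Averaged over libraries, the ratio was 7.92 ± 8.71 in astrocytes, 8.67 ± 8.78 in excitatory neurons, 9.27 ± 9.51 in inhibitory neurons (n = 9) and 6.02 ± 6.38 in OPCs, so the higher Gm47423 count of astrocytes went with their higher Ntrk2 count. In classes with few Ntrk2 counts the ratio could be computed in libraries of replicates 1, 4 and 5 alone: endothelial cells 4.90 ± 1.85 (n = 5), oligodendrocytes 3.67 ± 2.43 (n = 3), microglia 2.46 ± 2.38 (n = 4) and pericytes 1.43 ± 1.65 (n = 3). Microglia were below excitatory neurons in 4 of 4 libraries, pericytes in 3 of 3 and endothelial cells in 4 of 5. Astrocytes had a higher ratio than excitatory neurons in 4 of 10 libraries and a higher one than OPCs in 9 of 10. Among excitatory subclasses L5/6 NP neurons had 18.1 ± 13.5 (n = 6), in replicates 1, 4 and 5 alone, and were below L2/3 IT neurons in 4 of these 6 libraries. With 2 to 4 libraries of replicates 2 and 3 included, L2/3 IT neurons had 12.4 ± 10.3 (n = 9), L6 CT neurons 11.9 ± 10.5 (n = 8), L5 PT neurons 6.68 ± 7.06 (n = 9) and L5 IT neurons 6.53 ± 6.96 (n = 10). Both layer 5 subclasses were below L6 CT neurons in 7 of 8 libraries, and L2/3 IT neurons were above L5 IT neurons in 7 of 9. L2/3 IT neurons thus had a higher mean ratio than L5 IT neurons although their Ntrk2 level was lower. The difference within libraries, 5.15 ± 8.30 (n = 9), did not exceed its spread. In replicate 1 L2/3 IT neurons were below L5 IT neurons, at 16.8 against 20.4 in rank 1 and 9.89 against 12.9 in rank 4.

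**Figure D2:**
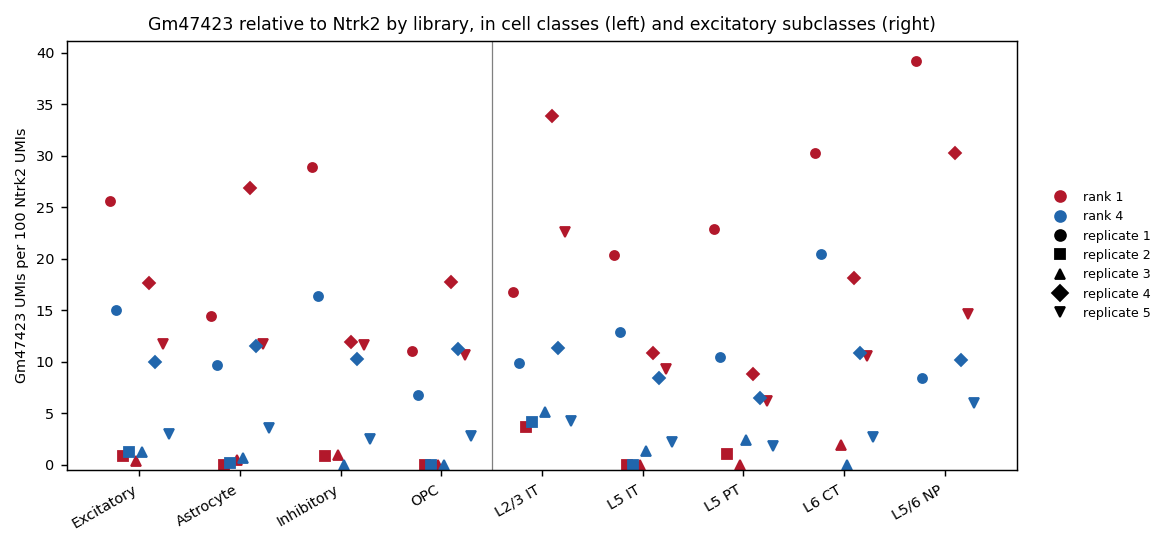
Gm47423 UMIs per 100 Ntrk2 UMIs (vertical axis) in each library, for 4 cell classes (left) and 5 excitatory subclasses (right); marker shape gives the replicate number and colour the rank. Squares and upward triangles, replicates 2 and 3, lie at or below 5.08 in every column, while circles and diamonds, replicates 1 and 4, lie at or above 6.44.

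Both Bdnf and Gm47423 had their highest mean level in 1 small excitatory cluster led by activity genes. It held 450 cells, 1.45% to 3.76% of the excitatory neurons of each library, and its leading genes were the early-response genes Nr4a2, Btg2, Ptgs2, Egr4, Tiparp, Egr2, Fosl2, Junb, Npas4 and Fosb. The clustering did not use the 7 genes. In the 6 libraries with at least 20 such cells, Bdnf was 369 ± 157 CPM (198 to 638) inside the cluster and 78.4 ± 12.1 in the other excitatory neurons, higher in 6 of 6. Ntrk2 was 914 ± 338 CPM inside and 481 ± 130 outside, higher in 6 of 6. Gm47423 was 258 ± 177 CPM (0 to 442) inside and 44.3 ± 29.6 outside, higher in 5 of 6. The ratio of Gm47423 to 100 Ntrk2 UMIs was 27.6 ± 21.7 inside and 8.64 ± 5.60 outside, higher in 5 of 6, so Gm47423 differed by more than Ntrk2 did. Ntrk3 (227 ± 45.0 against 230 ± 37.3 CPM) and Sort1 (204 ± 86.03 against 186 ± 58.6 CPM) were higher inside in 4 of 6 libraries each and did not differ beyond their spread. The cluster was found in the same cells, so the comparison is a description with no test.

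**Figure D3:**
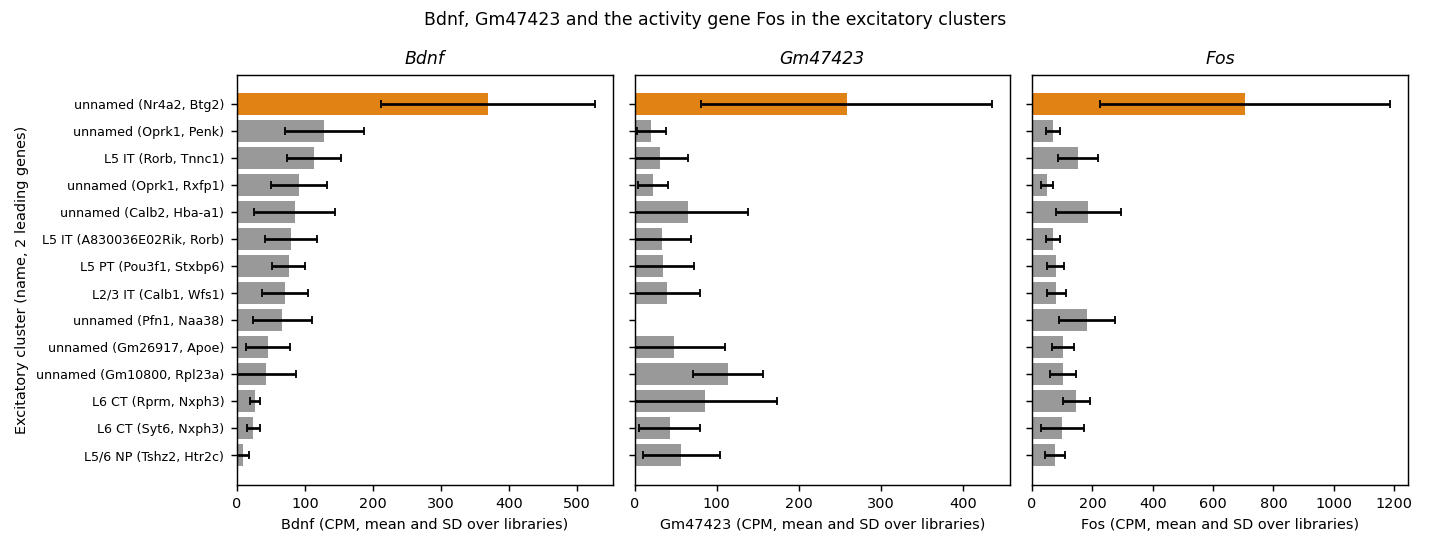
Bdnf, Gm47423 and the activity gene Fos in the excitatory clusters (horizontal axes, CPM, mean and SD over libraries with at least 20 cells of the cluster, lower error bars ending at 0), ordered by Bdnf and labelled with the subclass name and 2 leading genes. The activity-gene cluster, in orange, has 369 CPM of Bdnf, 258 of Gm47423 and 705 of Fos, above all other clusters shown.

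Detection of the genes was also compared cell by cell. With each excitatory neuron thinned to 1500 UMIs, a Gm47423 UMI was found in 6.77% ± 6.55 of cells with a Ntrk2 UMI and in 4.92% ± 5.11 of cells without one, higher in 8 of 10 libraries and lower in 1. In astrocytes the shares were 8.57% and 9.01%, higher in 6 libraries and lower in 2, so no common direction was seen there. A Ntrk2 UMI was found in 52.7% ± 15.6 of excitatory neurons with a Bdnf UMI and in 44.5% ± 10.0 of those without, higher in 8 of 10 libraries. Each of these gaps was smaller than the SD of the shares over libraries. That SD holds the difference between libraries, so it does not measure the spread of the gap within libraries.

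Between ranks, no pair of a gene and a cell class passed the test when only the software version of the library was modelled. Bdnf and Gm47423 passed when libraries with the same replicate number were compared as pairs. The labels do not pair the libraries: the pairing was taken from how they deviate together in these same data. It was not exact, since in excitatory neurons rank 1 replicate 3 was most like rank 4 replicate 2. The first test was edgeR's quasi-likelihood test on UMIs summed per library and class, with Benjamini-Hochberg adjustment over all genes of the class and a call at an adjusted p under 0.05. The 7 genes gave 30 testable pairs with 8 cell classes and 25 with the 5 excitatory subclasses: 0 were called in either, with 1 and 4 at an unadjusted p under 0.05. DESeq2 also called 0 of them. Of all genes in all class fits 0% were called, and 0% in the subclass fits. The median log2 difference, rank 1 minus rank 4, was -0.07 and -0.03 over these pairs. With the replicate number as a block, the replicate block, 3 of the 30 class pairs were called (2 higher in rank 1, 1 lower) and 4 of the 25 subclass pairs (3 higher, 1 lower), against 0.356% and 0.335% of all genes. By fit, the block called 0.720% of genes in astrocytes, 0.540% in excitatory neurons, 0.677% in L6 CT, 0.368% in L2/3 IT and 0.328% in L5 IT neurons. All called pairs were Bdnf or Gm47423.

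Bdnf was lower in rank 1 excitatory neurons in each of the 5 replicate pairs. Rank 1 libraries had 64.5, 49.0, 52.3, 82.4 and 69.8 CPM in replicates 1 to 5, and rank 4 libraries 105, 75.5, 72.8, 91.1 and 107 CPM. The groups overlapped, at 63.6 ± 13.5 against 90.4 ± 16.1 CPM (SD, n = 5 each), but every rank 1 library was below the rank 4 library with its replicate number. The log2 difference was -0.52 (SE 0.14, adjusted p = 1.00 by edgeR) with the version covariate and -0.51 (SE 0.10, adjusted p = 0.0312 by edgeR) with the replicate block. Within replicates 1 to 3 it was -0.62 (edgeR adjusted p = 1.00) and within replicates 4 and 5 it was -0.36 (edgeR adjusted p = 0.983). With the block, the call was lost when pair 1, 2, 3 or 5 was left out (adjusted p up to 0.182 by edgeR) and kept without pair 4 (adjusted p = 0.0116).

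Subclasses differed in how clear this was. In L2/3 IT neurons rank 1 libraries had 66.0, 26.1, 27.1, 56.8 and 72.0 CPM of Bdnf and rank 4 libraries 120, 39.8, 92.1, 110 and 98.1 CPM. Rank 1 was lower in 5 of 5 pairs, and the groups overlapped only through replicate 2 of rank 4. The log2 difference was -0.82 (SE 0.27, adjusted p = 0.999 by edgeR) with the version covariate and -0.79 (SE 0.17, adjusted p = 0.0223) with the block, and the call was lost without pair 1, 3 or 4 (adjusted p up to 0.228). Within replicates 1 to 3 it was -1.01 (edgeR adjusted p = 1.00) and within replicates 4 and 5 it was -0.65 (edgeR adjusted p = 0.736). In L5 IT neurons rank 1 libraries had 80.4, 62.0, 39.1, 102 and 102 CPM and rank 4 libraries 116, 46.6, 74.4, 143.5 and 145.3. Rank 1 was lower in 4 of 5 pairs, at -0.42 (edgeR adjusted p = 1.00) and -0.41 (edgeR adjusted p = 0.206) with the block. In L5 PT neurons rank 1 libraries had 67.4, 86.5, 54.8, 99.6 and 74.3 CPM and rank 4 libraries 32.7, 83.1, 51.0, 101 and 109, with no common direction. Compared without pairing, the difference between ranks was not shown to differ between subclasses. On the log2(CPM + 10) scale, L2/3 IT minus L5 PT gave -0.88 (two-sided exact permutation p = 0.143, adjusted p = 0.429) and L5 IT minus L5 PT -0.46 (exact permutation p = 0.286, adjusted p = 0.429). By replicate number, the first was lower in rank 1 in 4 of 5 pairs and the second in 3 of 5, and no paired test was run.

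Other values were set beside this difference. Without the activity-gene cluster described above, rank 1 excitatory neurons had 54.9, 42.5, 46.3, 73.7 and 64.1 CPM of Bdnf, rank 4 had 85.6, 65.5, 67.6, 83.4 and 96.1, and the block gave -0.50 (edgeR adjusted p = 0.0283). Astrocytes, where the Bdnf level is that of a class with few counts, also had less in rank 1, 8.50 ± 5.66 against 15.6 ± 10.98 CPM, lower in 4 of 5 pairs (block -0.85, edgeR adjusted p = 0.0893). The rank 1 mean was the lower one in every other class with 8 or more libraries too, from 4.95 against 7.37 CPM in inhibitory neurons to 9.93 against 26.5 in pericytes. In committed OPCs, with 7 libraries, it was the higher one, at 13.6 against 4.57 CPM. Depth differed within pairs as well: in replicate 4 the median excitatory neuron had 7483 UMIs in rank 1 and 2399 in rank 4, in replicate 5 it had 3259 and 1663, and in replicate 3 it had 3415 and 2735.5, while in replicates 1 and 2 the medians lay between 2913.5 and 3064.5. In replicate 1, with medians of 2953 and 3064.5 UMIs, Bdnf was 64.5 and 105 CPM, and the other replicates are given above. The replicate 1 libraries also differed in median mitochondrial percent over kept cells, 6.86 in rank 1 and 10.8 in rank 4. The part of depth, of mitochondrial share and of free RNA in the Bdnf difference was not tested.

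**Figure D4:**
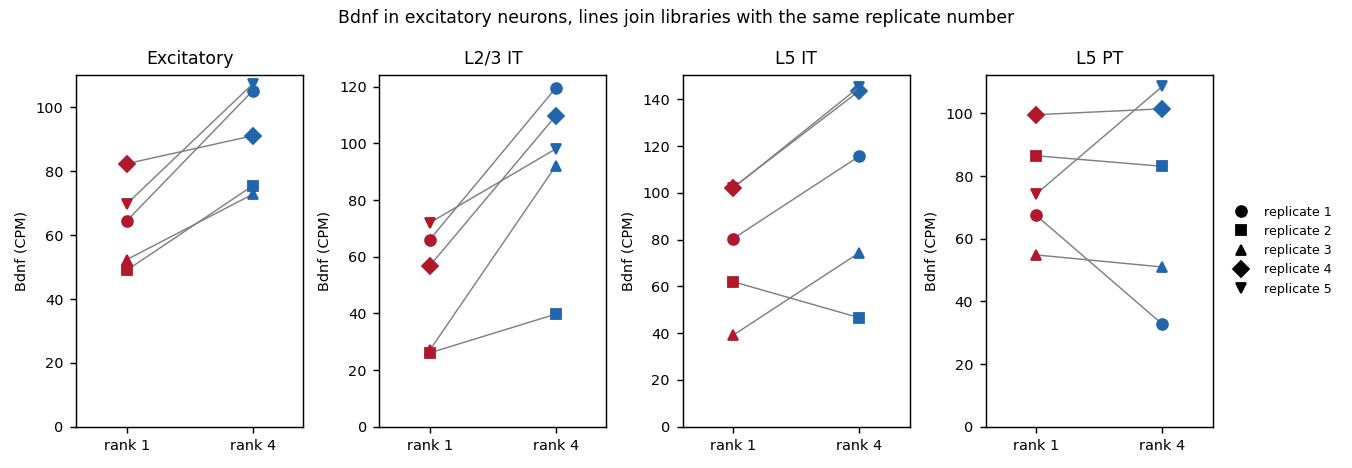
Bdnf (vertical axis, CPM) in all excitatory neurons and in L2/3 IT, L5 IT and L5 PT neurons, 1 point per library, with grey lines joining libraries of the same replicate number. All 5 lines rise from rank 1 to rank 4 in excitatory and L2/3 IT neurons, 4 of 5 in L5 IT neurons, and L5 PT lines run both ways.

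Activity genes were compared between ranks in the same fits. Of 8 such genes, none passed with the version covariate in any class. With the block, Egr1, which encodes a zinc finger factor induced by activity, was lower in rank 1, with log2 differences of -0.55 in excitatory neurons (edgeR adjusted p = 0.0377), -0.67 in L2/3 IT neurons (adjusted p = 0.0452) and -0.70 in L5 IT neurons (adjusted p = 0.00867). In single libraries, Egr1 in excitatory neurons was 93.5, 84.5, 154, 276 and 318 CPM in rank 1 and 188, 166, 183, 341 and 381 CPM in rank 4, lower in each rank 1 partner. Nr4a1, an orphan nuclear receptor gene, was lower too, at -0.54 in excitatory neurons (edgeR adjusted p = 0.0374), -0.97 in L5 IT neurons (adjusted p = 0.00253) and -0.71 in astrocytes (adjusted p = 0.0357). All 8 genes had values below 0 with the block in L5 IT neurons (-0.34 to -0.97) and in all excitatory neurons (-0.02 to -0.55), and in each of these Egr1 and Nr4a1 were the only 2 that passed. In L2/3 IT neurons 5 of 8 were below 0 and 3 above. Npas4, a neuronal activity factor that binds Bdnf regulatory DNA, was higher in rank 1 there by 0.69 (edgeR adjusted p = 0.0404). Values below 0 were not limited to neurons: 7 of 8 were below 0 in astrocytes and 5 of 5 tested in microglia (-0.34 to -1.12), where none passed. Egr1 in endothelial cells went the other way, at 260, 265, 311, 453 and 360 CPM in rank 1 and 237, 169, 244, 403 and 339 in rank 4. Across the 10 libraries, Bdnf in excitatory neurons and the mean of the 8 activity genes, both as log2(CPM + 10), had r = -0.05 (permutation p = 0.883) and rho = 0.09 (permutation p = 0.813), and without the 2 libraries farthest from the median r = -0.27. Over the 6 libraries of replicates 1 to 3, which share a software version, r was 0.06 (exact permutation p = 0.906). Over the 6 libraries of replicates 1, 4 and 5, a set chosen after seeing the data, r was 0.94 (exact permutation p = 0.00417, adjusted p = 0.0167 over the family) and rho 0.943 (adjusted p = 0.0667, exact permutation test). These p-values do not account for that choice. They also take the libraries as independent, although libraries with the same replicate number deviated together, so no conclusion is drawn from them.

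Gm47423 was higher in rank 1 in pairs 1, 4 and 5 of each class named here, while pairs 2 and 3 had low levels and, in astrocytes, all excitatory neurons and L2/3 IT neurons, were lower in rank 1. In astrocytes rank 1 libraries had 113, 0, 4.99, 357 and 154 CPM and rank 4 libraries 81.0, 1.65, 6.20, 147 and 36.4. Pairs 1, 4 and 5 were higher in rank 1, pairs 2 and 3 were near 0 in both ranks, and the groups overlapped (126 ± 146 against 54.5 ± 60.8 CPM). The log2 difference was 0.91 (adjusted p = 1.00 by edgeR) with the version covariate and 1.15 (SE 0.19, adjusted p = 0.000802 by edgeR) with the block. The call held when each pair was left out (adjusted p 1.45e-05 to 0.0253 by edgeR). It also held without replicates 2 and 3, at 1.26 (edgeR adjusted p = 4.62e-05 with the block). Depth differed within these pairs: the median astrocyte had 2126 UMIs in rank 1 and 1181 in rank 4 in replicate 4, and 1559 and 1260 in replicate 5. In replicate 1 it had 2207 in rank 1 and 2990.5 in rank 4. Depths of excitatory neurons are those given above for Bdnf. The part of depth in the Gm47423 difference was not tested. Neurons are described next.

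In all excitatory neurons Gm47423 was 117, 2.11, 0.943, 96.0 and 64.8 CPM in rank 1 and 65.1, 3.24, 3.05, 62.6 and 16.7 in rank 4. The log2 difference was 0.85 (edgeR adjusted p = 1.00) and, with the block, 1.04 (SE 0.20, edgeR adjusted p = 0.0312). This call was lost without pair 1, 3 or 5 (adjusted p up to 0.189) and without both replicates 2 and 3 (1.13, edgeR adjusted p = 0.0562), and the unpaired value turned to -0.33 without rank 1 replicate 1. In L2/3 IT neurons the rank 1 libraries had 49.9, 7.82, 0, 122 and 87.1 CPM and the rank 4 libraries 36.6, 8.52, 13.2, 54.9 and 19.0. The block gave 1.18 (SE 0.24, edgeR adjusted p = 0.00957), which became 1.30 (edgeR adjusted p = 7.31e-05) without replicates 2 and 3 and was lost without pair 5 (adjusted p = 0.334). In L6 CT neurons, with replicates 1, 3, 4 and 5, rank 1 had 160, 5.72, 107 and 59.6 CPM and rank 4 had 92.8, 0, 70.3 and 13.3, higher in 4 of 4 pairs, with 1.14 (SE 0.20, edgeR adjusted p = 0.00187) in the block and a lost call without pair 5 (adjusted p = 0.183). In L5 IT neurons rank 1 had 107, 0, 0, 63.1 and 62.4 CPM and rank 4 had 62.8, 0, 3.38, 56.6 and 15.2, with 0.92 (SE 0.21, edgeR adjusted p = 0.0434) in the block, a call kept only without pair 4 and lost without replicates 2 and 3 (0.94, edgeR adjusted p = 0.174). In L5/6 NP neurons, replicates 1, 4 and 5 had 116, 125 and 61.5 CPM in rank 1 and 28.1, 46.2 and 23.3 in rank 4, and the block gave 1.57 (edgeR adjusted p = 0.0603). Within replicates 4 and 5 alone, none of these classes was called (0.93 to 1.52 on the log2 scale, edgeR adjusted p 0.261 to 0.997), and within replicates 1 to 3 alone Gm47423 was not tested in any of them: the L6 CT and L5/6 NP subclasses had no fit, and in the others the gene was not among those that passed the filter on low counts.

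**Figure D5:**
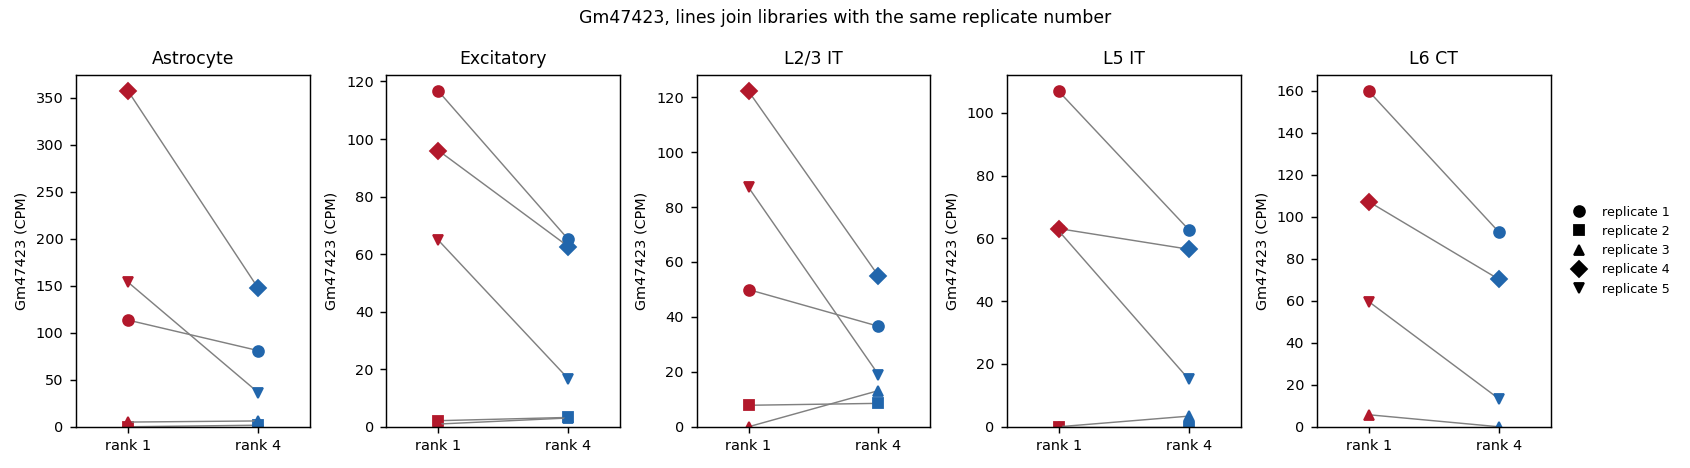
Gm47423 (vertical axis, CPM) in astrocytes, excitatory neurons and 3 excitatory subclasses, 1 point per library, with grey lines joining libraries of the same replicate number. Lines of replicates 1, 4 and 5 fall from rank 1 to rank 4 in every panel, for example from 357 to 147 CPM in astrocytes, while replicates 2 and 3 stay at or below 13.2 CPM.

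Ntrk2 itself was called in none of its 13 tested pairs with a class or subclass, in either fit. In astrocytes it was 1095 ± 228 CPM in rank 1 and 999 ± 170 in rank 4, a log2 difference of 0.11 (edgeR adjusted p = 1.00), and in L5 PT neurons -0.05 (edgeR adjusted p = 1.00). In L2/3 IT neurons, where Gm47423 was called, Ntrk2 was 298, 211, 156, 360 and 385 CPM in rank 1 and 370, 204, 259, 485 and 446 in rank 4, lower in 4 of 5 pairs (-0.29 with the block, edgeR adjusted p = 0.417). The most negative value was that of endothelial cells, at 57.0 against 82.0 CPM (-0.54 with the block, edgeR adjusted p = 0.171). The ratio of Gm47423 to Ntrk2 was higher in rank 1 in pairs 1, 4 and 5 of astrocytes, excitatory neurons and OPCs. Compared without pairing, the log2 ratio differed by 0.29 in astrocytes, 0.30 in excitatory neurons, 0.68 in inhibitory neurons and 0.79 in OPCs (two-sided exact permutation p = 0.873, 0.849, 0.619 and 0.571, adjusted p = 0.873 in all 4). These unpaired values rest partly on libraries with few Gm47423 UMIs: leaving out 1 library moved the value from -0.52 (without rank 1 replicate 4) to 1.58 (without rank 1 replicate 2) in astrocytes, and from -0.32 (without rank 1 replicate 1) to 1.15 (without rank 1 replicate 3) in excitatory neurons. In L2/3 IT neurons it differed by 1.19 (exact permutation p = 0.127, adjusted p = 0.508) and in L6 CT neurons by 1.27 (exact permutation p = 0.371, adjusted p = 0.743). It differed by 0.11 in L5 IT neurons and by -0.24 in L5 PT neurons (exact permutation p = 0.929 and 0.873, adjusted p = 0.929 in both). With the replicate block, as differences within pairs, the log2 ratio was higher in rank 1 in 4 of 4 pairs of inhibitory neurons (1.22 ± 0.88, SD) and of L6 CT neurons (1.27 ± 0.72). In both, pair 3 rests on 1 Gm47423 UMI against 0, so its size is set by the 0.5 added to each count. An exact sign-flip test gave p = 0.125 for each, and it cannot pass 0.05 here, since 5 pairs reach 0.0625 at the least and 4 pairs 0.125. Elsewhere the pairs ran both ways. Rank 1 was higher in 3 of 5 pairs of astrocytes (0.29 ± 1.35) and of excitatory neurons (0.30 ± 1.37). It was higher in 4 of 5 pairs of OPCs (0.79 ± 0.78) and of L5 IT neurons (0.11 ± 1.74). In L2/3 IT neurons 3 of 4 pairs were higher (1.14 ± 1.09), and in L5 PT neurons 3 of 4 (0.07 ± 2.09, against -0.24 without pairing).

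The other members gave no call. Ntf3 was higher in rank 1 in 5 of 5 pairs of excitatory neurons (5.64, 12.7, 10.4, 4.98 and 2.76 CPM against 3.34, 12.5, 6.98, 2.47 and 1.53). In L2/3 IT neurons it was also higher in 5 of 5 pairs, at 30.6, 46.9, 47.4, 26.6 and 16.4 CPM against 12.7, 42.6, 43.9, 14.2 and 8.92. The log2 difference was 0.59 (edgeR adjusted p = 1.00) and 0.68 (adjusted p = 0.999 by edgeR), and 0.62 (adjusted p = 0.256) and 0.67 (adjusted p = 0.387) with the block, so neither passed. Ntrk3 was 216 ± 31.3 CPM in rank 1 excitatory neurons and 214 ± 44.0 in rank 4, a log2 difference of 0.01, and 0.07 in L5 PT neurons. Sort1 was 159 ± 108 CPM in rank 1 oligodendrocytes and 165 ± 114 in rank 4, and differed by -0.11 in L2/3 IT neurons (edgeR adjusted p = 0.999).

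A further 68 genes of the pathway, all listed in these files, were examined. None was called between ranks in any class or subclass with the version covariate. The ligand gene Ntf5 had 45 UMIs and did not pass the filter. Among co-receptors the most abundant were Lingo1, a partner of p75 (512 ± 76.3 CPM in excitatory neurons, its highest class), and Kidins220, a Trk scaffold (244 ± 58.2 CPM in inhibitory neurons). Among processing enzymes, Cpe, which sorts and trims propeptides, reached 2611 ± 1065 CPM in astrocytes, and the convertase gene Pcsk2 reached 591 ± 171 CPM in excitatory neurons. Of the signalling genes Hras (171 ± 97.9 CPM), and of the regulators of Bdnf Mef2c (1503 ± 137) and Mef2d (126 ± 40.0), were highest in excitatory neurons. The p75 partners Maged1 (583 ± 126 CPM) and Bex3 (424 ± 211) were highest in inhibitory neurons.

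With the replicate block, 2 of 358 pairs of a pathway gene and a class passed (0.559%) and 1 of 243 with a subclass (0.412%), near the 0.356% and 0.335% of all genes. Lingo1 fell by 0.68 in rank 1 astrocytes (edgeR adjusted p = 0.0464), Cpe fell by 0.62 in endothelial cells (edgeR adjusted p = 0.0157), and Npas4 rose in L2/3 IT neurons, as given above. With the version covariate, the results with the smallest unadjusted p in each direction were Sorcs2, a sortilin relative, at 0.67 in L2/3 IT neurons (adjusted p = 0.999 by edgeR), and Pcsk1, a convertase gene, at -0.73 in L5 PT neurons (adjusted p = 1.00 by edgeR). By role, the median log2 difference in excitatory neurons was 0.07 over co-receptors (5 of 7 tested genes higher in rank 1), 0.08 over processing enzymes (5 of 7) and 0.02 over signalling genes (17 of 31). It was -0.09 over regulators of Bdnf (2 of 9 higher) and -0.03 over p75 partners (2 of 7), beside 0.00 over all 12402 genes tested.

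The genes whose level was most alike over the 12 cell classes, by Pearson r of log2(CPM + 10) among 12151 genes, are named for each member. For Bdnf they were Nxph3 (r = 0.957), Smoc2 (0.938) and Slc17a7 (0.931), the last the vesicular glutamate transporter of cortical excitatory neurons. For Ntrk2 they were Ntm (0.981), C130071C03Rik (0.979) and Gpm6a (0.972), and C130071C03Rik was also the first for Gm47423 (0.957), followed by Chst10 and Kcnk1. For Ntrk3 they were Wdr6 (0.971), Arfgef3 and Meaf6, and for Sort1 Rasl11b (0.874), Eif4h and Stmn1. For Ntf3 (Ccdc3, 0.962) and Ngfr (Efhd1, 0.905) the likeness rests on levels under 20 CPM in every class. Over the 10 libraries, within excitatory neurons, the genes most like Gm47423 among 8852 were Galnt1 (0.981), Gm49179 (0.969), Scn3a, 3110021N24Rik, Pyroxd1 and Gria2 (0.952). These genes were chosen by this likeness, so their low values in replicates 2 and 3 are no separate result. Gria2, an AMPA receptor gene, had 819 to 961 CPM in replicates 2 and 3 and 1618 to 2120 CPM in the other libraries, a smaller fold than that of Gm47423.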

How the data were processed

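The deposited files give raw UMI counts per gene and cell barcode for 10 libraries. The authors made them with Cell Ranger 4.0.0 on mm10, per the submitters' processing notes; per the file headers, matrices of replicates 1 to 3 carry software version 3.1.0 (31053 genes listed) and those of replicates 4 and 5 version 4.0.0 (32285 genes). The 30406 shared genes held 99.4% to 99.9% of each library's UMIs. The setting for strand, the 3′ or 5′ chemistry and the cell calling options are not given in the sources used here.

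Cells with at least 500 genes and at most 15% mitochondrial UMIs were kept, and 3095 doublets called by Scrublet (expected rate 0.06) were removed. The caller marked none in 2 libraries, replicate 1 of both ranks, where the median threshold of the others, 0.247, was used. Clustering used scanpy 1.11.5 and igraph 0.11.9 (2000 variable genes without the 7 members, 30 principal components, 15 neighbours, edge weights rounded, Leiden resolution 1). Clusters were named from marker lists, 4 clusters with 2090 cells and 7 of 15 excitatory clusters stayed unnamed, and differences from the study may come from these rebuilt names.

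CPM divides a gene's UMIs by all UMIs of a library and class, for classes with at least 20 cells. The rank test was edgeR 4.0.16 (limma 3.58.1, R 4.3.3) on summed counts with TMM scaling, filterByExpr and the software version as covariate, for classes with 3 or more libraries per rank. DESeq2 1.42.0, other filters, left-out libraries and another clustering were alternatives. The same replicate number marked libraries that deviate together from their rank mean (r = 0.745 to 0.909 in excitatory neurons and 0.699 to 0.833 in astrocytes over the 5 pairs; the rank 4 library most like a rank 1 library had its number in 4 of 5 cases and 3 of 5, and in the others the match lay within replicates 2 and 3 or within 4 and 5), so the numbers were taken to pair the libraries, from the data and not from the labels. Ratios used log2 with 0.5 added and exact permutation tests (scipy 1.17.1), and scripts were tested on simulated data.

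All 7 members are named. For the rank contrast, values are given for the tested class and subclass with each member's highest level, for the 3 class and 3 subclass pairs with the smallest unadjusted p, and for pairs that pass in either fit. Pathway genes are named when they pass, by smallest p in each direction, and by the 2 most abundant per role, of which some are not reported here. The test between subclasses and the comparison over replicates 1, 4 and 5 were added after the data were seen. The members and all lists were chosen with earlier results of these data known. Counts of UMIs carry counting error that the SDs over libraries include.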

Additional observations from a re-analysis of the deposited data

How the results depend on the processing

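The 18 named pairs of a gene and a class gave 459 log2 differences over 30 other settings: 427 kept the direction and 32 reversed. Of the class pairs, 3 were called with the replicate block and 1 with the replicate block without replicates 2 and 3, against 0 as reported (0 to 3 over fits with libraries left out). Of the subclass pairs, 4 were called with the replicate block, 2 without a low-count filter, 2 with 3 sets of replicates (1, 2 and 3, 4 and 5), chosen after seeing the data, as covariate, 1 without replicates 2 and 3 and 2 with the replicate block there (0 to 3 with libraries left out). The pairs called without the filter were Gm47423 in L6 CT and L5/6 NP neurons. Beyond the Bdnf and Gm47423 calls given in the results, the replicate block changed no call of a named pair. In L5 IT neurons the Gm47423 call depended on which clusters made up the subclass: its largest cluster alone gave 0.91 with the replicate block (edgeR adjusted p = 0.0513). At Leiden resolution 0.5 no cluster was named L5 IT, so that alternative was not run for it, and within replicates 1 to 3 Gm47423 was not tested in any class.

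The reversed values are given here. Ntrk2 in L5 PT was 0.063 within replicates 1 to 3 (-0.18 to 0.026 with libraries left out). Ntrk3 in excitatory neurons was -0.063 within replicates 4 and 5, -0.014 without replicates 2 and 3 and -0.011 there with the replicate block (-0.043 to 0.086 with libraries left out), and Ntrk3 in L5 PT ran from -0.015 to 0.15. Sort1 in oligodendrocytes was 0.030 with DESeq2, 0.0040 with the replicate block, 0.018 without the version covariate, 0.022 and 0.024 within replicates 1 to 3 and 4 to 5, and 0.0029 at resolution 0.5 (-0.12 to 0.092 with libraries left out), and Sort1 in L2/3 IT ran from -0.24 to 0.080. Leaving out libraries moved Gm47423 in excitatory neurons from -0.33 (without rank 1 replicate 1) to 1.87 (without rank 4 replicate 1). The unpaired log2 ratio of Gm47423 to Ntrk2 ran from -0.52 (without rank 1 replicate 4) to 1.58 in astrocytes and from -0.32 to 1.15 in excitatory neurons. The correlation of Bdnf with activity genes was 0.065 within replicates 1 to 3 and 0.94 without replicates 2 and 3 (-0.19 to 0.13 with libraries left out). The cause of these changes was not tested. Counts were too few to order the classes for Ngfr, and for Ntf3 outside L2/3 IT neurons.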
